A study of Homo sapiens with 8 samples.

Results

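The calcitonin receptor-like receptor CALCRL was described here together with the genes of its receptor and peptide system in PC3, a human cell line established from prostate cancer. The set comprises 9 of the 58051 genes of the count table. These are the receptors CALCRL and CALCR, the accessory proteins RAMP1, RAMP2 and RAMP3, the peptide hormones ADM, ADM2 and CALCB, and the receptor component CRCP. They were matched by symbol, and CALCRL was selected on its higher counts in shIER5L, so that its own contrast is given as a description without a test. RNA-seq was performed on PC3 cells transduced by lentivirus with either a Scramble hairpin (shScramble) or an IER5L hairpin (shIER5L), with 4 samples per condition and 8 in all. Per the methods, cells carrying vector were selected with puromycin and the silenced cells carried the hairpin sh2 alone. The labels call the samples biological replicates, and the methods name 4 plates seeded per condition. Nothing says that they came from separate transductions, so that p-values measure the spread between these samples, which may be technical. The labels name no other treatment, and both conditions share the cell line, the lentiviral vector and the selection.

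CALCRL is a class B1 G protein-coupled receptor that needs a receptor activity-modifying protein (RAMP) to reach the cell surface and to recognise its ligand. With RAMP1 it forms the receptor for calcitonin gene-related peptide (CGRP), and with RAMP2 or RAMP3 it forms receptors for adrenomedullin, a vasodilator peptide. These receptors couple mainly to the stimulatory G protein, which activates adenylyl cyclase and raises cAMP. The system is best known in endothelium, vascular smooth muscle and sensory nerve, and adrenomedullin is also made by many carcinoma cells, where hypoxia raises its transcript.

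The sequence used to silence IER5L is shown first because stretches of it recur in 3′ UTRs of genes described below. The sh2 sequence matched the coding sequence of IER5L on the minus strand at chr9:129176988-129177008 (hg38). Its capitals mark the 8 bases that hold the overlapping heptamers ACATCTC and CATCTCA, which were searched in the longest annotated 3′ UTR of each gene, on the transcript strand. Among the 9 genes, CRCP was the single one with a match, at chr7:66154042-66154071 on the plus strand. Of the other genes named below, 5 that passed the test also had a match, and 4 of these are printed. They are ATF1 at chr12:50820881-50820910, POLR3GL at chr1:145978654-145978683 and CREM at chr10:35212602-35212631, all on the plus strand, and PRKAR2A at chr3:48749487-48749516 on the minus strand. Each 3′ UTR stretch is given as 30 bases with the matched bases in capitals.
sh2 IER5L target: gacgcgtccaACATCTCAaac
CRCP: gggtgagactcCATCTCAaaaaagagaaag
ATF1: agtaaaatttgCATCTCAaagtatcatttt
POLR3GL: gcaaaggacaaACATCTCAattgtatgaag
CREM: gccctttctacCATCTCAcggtggggatgg
PRKAR2A: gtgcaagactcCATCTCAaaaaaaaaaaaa
Either heptamer was present in 24.3% of the 19534 genes with a 3′ UTR of at least 30 bases. A match is a description of these letters and not of binding.

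Between 21512128 and 24662190 reads were counted on genes per library, and values are given as CPM, the reads of a gene relative to the TMM-scaled size of the library. Of 16959 genes with enough counts to be tested, 418 (2.46%) were higher and 248 (1.46%) lower in shIER5L at an adjusted p under 0.05 in edgeR's quasi-likelihood test, 666 (3.93%) in either direction. Groups did not overlap for 1855 genes (10.9%). IER5L itself was at 3.91, 6.51, 5.62 and 3.23 CPM in shScramble replicates 1 to 4 and at 2.73, 3.03, 2.04 and 1.33 CPM in shIER5L replicates 1 to 4. All silenced libraries lay below all controls, and IER5L fell with a log2 fold change of -1.08 ± 0.25 (SE, adjusted p = 0.0212). Its exons overlap those of 2 antisense genes. Libraries of both conditions fell into a pair of classes by a trend with the GC content of genes. In shScramble replicates 2 and 3 and shIER5L replicates 1 and 2, GC-rich genes were above their condition mean (correlation across 14055 genes between 0.252 and 0.477). The other 4 libraries showed the opposite trend, with correlations between -0.473 and -0.285. Each class holds 2 libraries of each condition, and within-class values are given beside RAMP1, ADM and others below. Since deviations were taken from the mean of each condition, such a split cannot show a GC difference between the conditions. IER5L fell from 6.07 to 2.88 CPM on average in the class with a positive trend and from 3.57 to 1.68 CPM in the other. This direction was fixed, since its conditions did not overlap over all libraries. The origin of the classes was not tested.

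CALCRL, the receptor, was weakly expressed in control cells and was higher in every silenced library. The gene (ENSG00000064989) lies on the minus strand of chromosome 2, and its exons in the count table span positions 187343129 to 187448460 of hg38. It received 32, 32, 26 and 30 reads in shScramble replicates 1 to 4 and 76, 70, 80 and 56 reads in shIER5L replicates 1 to 4. In CPM these were 1.51, 1.35, 1.04 and 1.34 against 3.35, 2.94, 3.33 and 2.56. The conditions did not overlap, and the lowest silenced library lay above the highest control library. Mean levels were 1.31 ± 0.19 CPM in shScramble and 3.05 ± 0.38 CPM in shIER5L (SD, n = 4), a log2 fold change of 1.22 ± 0.19 (SE) or 2.33-fold. Of the genes tested, 8 had a log2 fold change at least this large, CALCRL included. In libraries with a positive GC trend the means were 1.20 and 3.15 CPM, and in the other class 1.43 and 2.94 CPM. Since the conditions did not overlap over all libraries, they could not overlap within a class. Every CALCRL count was even, since the 2 reads of a pair were counted singly, so that fewer fragments than reads stand behind these values. No other annotated gene shares exon bases with CALCRL. In a bulk sample, more cells with the transcript and more transcript per cell cannot be told apart.

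CALCR, the calcitonin receptor, which also pairs with RAMPs to form amylin receptors, was close to undetected. It had 2 reads in shScramble replicate 1 and none in the other 7 libraries. With reads in only 1 library, an exact permutation test over samples (two-sided) must give p = 1. It therefore carries no information on a difference. A count of 0 allows up to 3 reads if reads are independent, which corresponds to 0.12 to 0.141 CPM per library. Since the reads of a pair were counted singly, the true limit is higher. CALCRL was therefore the receptor of this pair with reads in every library.

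Among the accessory proteins, RAMP1 was abundant while no read was counted for RAMP2 or RAMP3 in any library. RAMP1 was at 64.8, 79.3, 82.6 and 57.5 CPM in shScramble replicates 1 to 4 and at 79.0, 84.5, 62.0 and 53.2 CPM in shIER5L replicates 1 to 4. Its libraries overlapped fully between the conditions, with means of 71.0 ± 11.9 and 69.7 ± 14.6 CPM (SD, n = 4), a log2 fold change of -0.03 ± 0.13 (SE, adjusted p = 0.950). The spread of RAMP1 followed the GC classes. GC made up 64.3% of its longest transcript. It was at 79.0 to 84.5 CPM in the 4 libraries with a positive trend and at 53.2 to 64.8 CPM in the 4 others, with no overlap between classes. Once the GC trend of each library was removed, its log2 fold change was 0.03 ± 0.05 (SE, adjusted p = 0.850), and with the class as a term -0.03 ± 0.05 (SE, adjusted p = 0.780). For RAMP2, 412 of 1148 exon bases are shared with the antisense gene RAMP2-AS1, also at 0 in all libraries, and reads in shared bases count for neither gene. Of the 3 RAMPs, RAMP1, the partner in the CGRP receptor, was thus the only one with reads. At this depth, the RAMPs that make adrenomedullin receptors were not detected in any library.

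**Figure D1:**
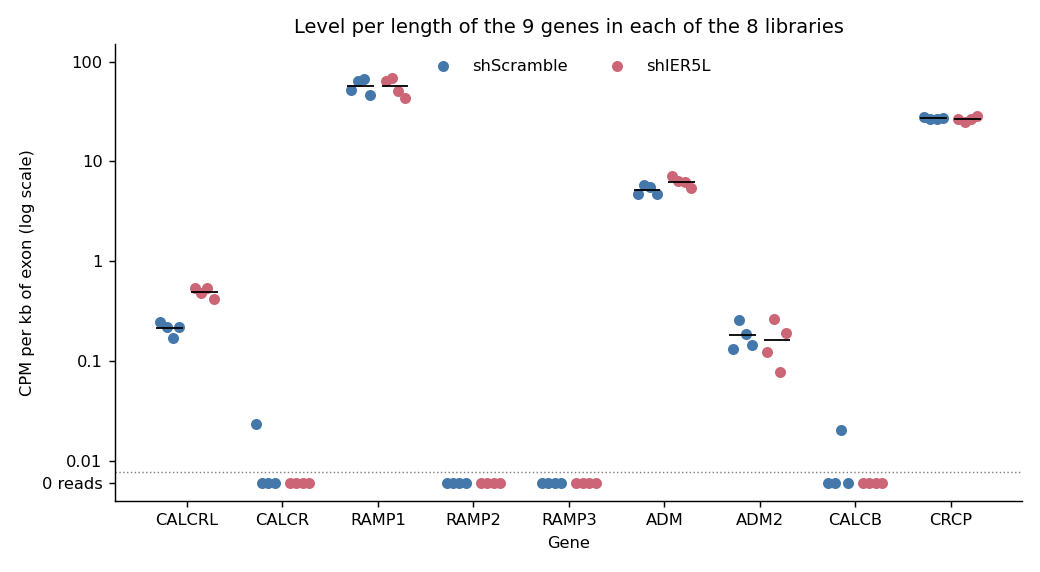
Level of the 9 genes per length, in CPM per kb of exon on a log axis, for each of the 4 shScramble (blue) and 4 shIER5L (red) libraries, with libraries at 0 reads drawn below the dotted line and bars at the mean where no library is at 0. RAMP1 and CRCP stand highest, CALCRL and ADM2 lie near each other in shScramble and apart in shIER5L, and RAMP2 and RAMP3 have no reads.

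Per kb of exon, the order of mean levels in shScramble was RAMP1, CRCP, ADM, CALCRL and ADM2, followed by CALCR and CALCB, while RAMP2 and RAMP3 were at 0. RAMP1 stood at 57.6 ± 9.6 CPM per kb, CRCP at 27.0 ± 0.54 CPM per kb and ADM at 5.22 ± 0.57 CPM per kb (SD, n = 4), each apart from its neighbours in every library. CALCRL, at 0.214 ± 0.032 CPM per kb, overlapped with ADM2, at 0.181 ± 0.056 CPM per kb. RAMP1 and ADM were at or above 94.9% and 59.5% of the genes tested by this measure, CALCRL only at or above 6.32%. In shIER5L the order of the first 5 was the same and the other 4 genes had no reads, but CALCRL, at 0.496 ± 0.061 CPM per kb, no longer overlapped with ADM2, at 0.165 ± 0.082 CPM per kb. The level of RAMP1 per kb was 213 to 394 times that of CALCRL in the control libraries and 92.7 to 143 times in the silenced ones. Its transcript thus remained far more abundant than that of the receptor in both conditions.

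ADM, which encodes adrenomedullin, was the most abundant of the 3 peptide genes and stood somewhat higher in silenced cells, but did not pass the test. ADM (ENSG00000148926, plus strand of chromosome 11, 10304680 to 10307397 in the table) was at 12.8, 15.9, 15.1 and 12.9 CPM in shScramble replicates 1 to 4. In shIER5L replicates 1 to 4 it was at 19.2, 17.4, 16.8 and 14.9 CPM. Only shIER5L replicate 4 fell within the control range. The means were 14.2 ± 1.6 and 17.1 ± 1.8 CPM (SD, n = 4), a log2 fold change of 0.27 ± 0.10 (SE, unadjusted p = 0.0194, adjusted p = 0.188 in edgeR's quasi-likelihood test). GC made up 58.5% of the longest ADM transcript, and its libraries also split by GC class. In the class with a positive trend, shScramble was at 15.9 and 15.1 CPM and shIER5L at 19.2 and 17.4 CPM. In the other class, the values were 12.8 and 12.9 CPM against 16.8 and 14.9 CPM. The conditions did not overlap within either class. With the GC trend of each library removed, the log2 fold change was 0.32 ± 0.08 (SE) and the adjusted p 0.0171. With the GC class as a term it was 0.27 ± 0.08 (SE) and the adjusted p 0.0332. Both fits were chosen after the data were seen, and they called 8.07% and 10.3% of all genes tested. Over all 20 alternative fits, the adjusted p for ADM ran from 0.0171 to 0.383.

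ADM2, which encodes adrenomedullin 2 (intermedin), another peptide that acts on CALCRL, was at the edge of detection. It had 12, 26, 20 and 14 reads in shScramble and 12, 27, 8 and 18 reads in shIER5L replicates 1 to 4. Means of 0.774 ± 0.239 and 0.705 ± 0.350 CPM (SD, n = 4) gave a log2 fold change of -0.14 ± 0.38 (SE, adjusted p = 0.906), with conditions that overlapped. The gene for the second form of CGRP, CALCB, had 2 reads in shScramble replicate 3 and none elsewhere. The exact permutation test (two-sided, p = 1) was again fixed by reads in only 1 library. CALCA, which encodes calcitonin and the first form of CGRP, and IAPP, which encodes amylin, had no read in any library. Apart from adrenomedullin and its relative ADM2, transcripts of the peptide family were thus at or below 2 reads per library. At this depth the difference for ADM2 was not detectable within an SE of 0.38 on the log2 scale.

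CRCP encodes a small protein that couples CALCRL to its signalling pathway and is also a subunit of RNA polymerase III. It was the steadiest of the set, at 98.0, 94.9, 93.4 and 95.9 CPM in shScramble replicates 1 to 4 and at 94.6, 87.2, 93.9 and 100.4 CPM in shIER5L replicates 1 to 4. The conditions overlapped, with means of 95.6 ± 1.9 and 94.0 ± 5.4 CPM (SD, n = 4) and a log2 fold change of -0.02 ± 0.05 (SE, adjusted p = 0.878). Its 3′ UTR holds the CATCTCA match printed above. CRCP shares 359 of its 3540 exon bases with another annotated gene on the same strand. Of the 4 genes tested besides CALCRL, RAMP1, ADM, ADM2 and CRCP, none passed in edgeR's quasi-likelihood test, with ADM alone under an unadjusted p of 0.05, and none passed in DESeq2. ADM passed in the 2 fits that account for the GC content. CALCR, RAMP2, RAMP3 and CALCB had too few reads to be tested.

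**Figure D2:**
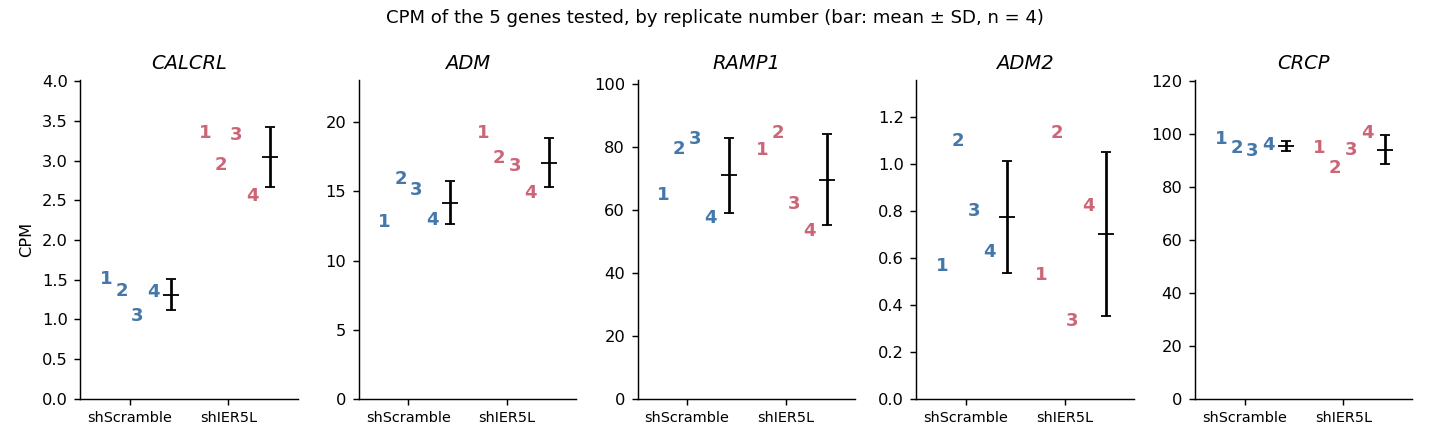
CPM of CALCRL, ADM, RAMP1, ADM2 and CRCP, the 5 genes with enough reads to be fitted, with each library drawn as its replicate number (blue, shScramble; red, shIER5L) and the mean ± SD (n = 4) beside it. The conditions are apart for CALCRL, overlap by 1 library for ADM, and overlap fully for RAMP1, ADM2 and CRCP.

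The genes around the receptor system were described by lists. Some follow the path of the signal, from peptide processing to cAMP-responsive transcription. The others cover hypoxia-inducible genes with regulators of that response, RNA polymerase III subunits, other class B1 receptors and the rest of the calcitonin family. Together the lists held 129 genes, of which 103 had enough reads to be tested. Of these, 55 had a higher and 48 a lower level in shIER5L, with a median log2 fold change of 0.02 against 0.0021 over all genes. A total of 9 genes passed, 6 higher and 3 lower, which is 8.74% of the genes tested beside the 3.93% over all genes. None of these had an absolute log2 fold change of 0.5 or more.

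Of 14 tested genes of peptide processing and degradation, 2 passed (14.3%, beside 3.93% over all genes), both higher in shIER5L. By direction alone, 7 were higher and 7 lower. PAM, the amidating enzyme that gives adrenomedullin and CGRP the C-terminal amide they need for activity, was at 213.2, 218.9, 219.6 and 210.3 CPM in shScramble replicates 1 to 4. It was at 267.6, 255.7, 263.5 and 268.4 CPM in shIER5L replicates 1 to 4. All silenced libraries were above all controls, and the log2 fold change was 0.29 ± 0.04 (SE, adjusted p = 0.000408), or 1.22-fold. PAM passed in each of the 20 alternative fits. Its means were 219.3 and 261.6 CPM in the class with a positive GC trend and 211.7 and 265.9 CPM in the other. With no overlap over all libraries, a rise in both classes was given in advance. CPE, a carboxypeptidase that trims basic residues from prohormones, rose from 57.8 ± 4.2 to 68.2 ± 1.2 CPM (SD, n = 4), a log2 fold change of 0.24 (adjusted p = 0.0283). It passed in 2 of the 8 fits that each left out 1 library, those without shScramble replicate 1 or without shIER5L replicate 2. CPD, another carboxypeptidase, was lower in shIER5L without overlap, at 123.3 ± 4.1 and 110.5 ± 5.0 CPM (SD, n = 4). It did not pass in edgeR's quasi-likelihood test (adjusted p = 0.0868), but passed in DESeq2 and in the fits that account for GC content. DPP4, a dipeptidyl peptidase of the cell surface and the most abundant of the list per kb, was at 310.2 ± 14.6 and 330.6 ± 12.9 CPM (adjusted p = 0.327). The list had a median log2 fold change of -0.02.

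Of 12 tested G protein and adenylyl cyclase genes, none passed in edgeR's quasi-likelihood test, 4 had an unadjusted p under 0.05 and ADCY6 passed in DESeq2. The shares over the whole table were 16.5% for an unadjusted p below 0.05 and 5.58% for DESeq2. The median log2 fold change was 0.08. GNAS, which encodes the stimulatory alpha subunit through which CALCRL signals, was at 352.9 ± 5.3 and 345.7 ± 18.3 CPM (SD, n = 4, adjusted p = 0.805). GNAI1 and GNAI2, inhibitory alpha subunits, were at 64.5 ± 5.0 and 73.8 ± 4.6 CPM (adjusted p = 0.121) and at 104.0 ± 4.1 and 105.9 ± 4.8 CPM (adjusted p = 0.868). The transcripts of the coupling machinery were thus present in both conditions, next to a receptor at 1.04 to 3.35 CPM.

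Of 19 tested cAMP effectors and phosphodiesterases, 3 rose and 1 fell past the test (21.1%, beside 3.93% over all genes). The median log2 fold change was 0.02. PRKAR2A, a regulatory subunit of protein kinase A, rose from 192.4 ± 8.0 to 219.1 ± 7.5 CPM (log2 fold change 0.19, adjusted p = 0.0246). PDE3B, a phosphodiesterase that degrades cAMP, rose from 28.9 ± 1.5 to 35.0 ± 1.9 CPM (log2 fold change 0.28, adjusted p = 0.0301). CREM, a transcription factor of the CREB family with activating and repressing forms, rose from 88.0 ± 1.4 to 104.2 ± 6.9 CPM (log2 fold change 0.25, adjusted p = 0.0143). ATF1, an activator of the same family, fell from 52.0 ± 1.7 to 41.6 ± 2.6 CPM (log2 fold change -0.32, adjusted p = 0.00719). The libraries of the 2 conditions did not overlap for these 4 genes, beside 10.9% of all genes tested, and ATF1 passed in every alternative fit. PRKAR2A passed in 3, PDE3B in 1 and CREM in 5 of the 8 fits with 1 library left out. PRKAR1A, the most abundant of the list per kb, was at 355.8 ± 22.9 and 360.8 ± 17.7 CPM (adjusted p = 0.898). PRKACB, a catalytic subunit of protein kinase A, was at 41.8 ± 1.1 and 49.2 ± 3.9 CPM without overlap (SD, n = 4). It did not pass in edgeR's quasi-likelihood test (adjusted p = 0.055). In DESeq2, which called 5.58% of all genes, and in the fits that account for GC content, it passed. Genes higher in shIER5L thus include a catalytic and a regulatory subunit of protein kinase A, a phosphodiesterase and CREM.

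No gene passed among 11 tested for receptor desensitization and trafficking or among 9 tested cAMP-responsive genes, with median log2 fold changes of 0.0016 and 0.08 (edgeR's quasi-likelihood test). Beside the 16.5% over all genes, an unadjusted p under 0.05 was found for 4 of the first and 0 of the second list, and DESeq2 passed RAB5A alone. RAB5A, of early endosomes, was at 103.2 ± 2.9 and 117.2 ± 6.8 CPM (SD, n = 4, adjusted p = 0.0558). RAB11A, of recycling endosomes, was at 68.1 ± 4.1 and 64.1 ± 4.5 CPM, and NSF, which drives membrane fusion, at 66.7 ± 1.7 and 68.2 ± 3.1 CPM. Among the cAMP-responsive genes, DUSP1, a phosphatase gene, was at 12.9 ± 1.0 and 13.6 ± 1.4 CPM (adjusted p = 0.767) and FOSL2, of the AP-1 family, at 14.8 ± 2.1 and 15.0 ± 0.8 CPM (adjusted p = 0.959). CRTC2, a coactivator of CREB, was at 3.29 ± 0.41 and 3.62 ± 0.40 CPM (adjusted p = 0.740). It is a regulator of the response, as is CRTC3 of the same list, so that not all of its genes are targets. NR4A1, NR4A3, FOS, PER1 and SIK1 averaged only 0.423 to 1.20 CPM in shScramble. The SE of their log2 fold changes was 0.28 to 0.52, so that moderate changes in them could not be detected.

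Since hypoxia is known to raise ADM, hypoxia-inducible genes were listed next to it. The list also holds HIF1A, EPAS1, ARNT and VHL, regulators of that response, so that not all of its genes are targets. Of 20 tested genes, none rose and 1 fell past the test (5%, near the 3.93% over all genes), with a median log2 fold change of 0.01. PGK1, a glycolytic enzyme, fell from 2125 ± 96.8 to 1560 ± 26.9 CPM (SD, n = 4), a log2 fold change of -0.45 ± 0.04 (SE, adjusted p = 8.87e-06). It passed in every alternative fit. LDHA, lactate dehydrogenase, was at 2037 ± 133 and 1996 ± 47.8 CPM (adjusted p = 0.822), and P4HA1, a collagen prolyl hydroxylase, at 509.0 ± 18.5 and 503.7 ± 19.4 CPM (adjusted p = 0.912). None of the other 19 genes of the list passed. Of these, 3 had an unadjusted p under 0.05, near the share of 16.5% over all genes, and EGLN1, which encodes an oxygen-sensing hydroxylase, passed in DESeq2.

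RNA polymerase III subunits were listed because CRCP is one of them. Of 16 tested, 1 rose and 1 fell past the test (12.5%, beside 3.93% over all genes), and the median log2 fold change was -0.01. These were the alternative subunits POLR3G and POLR3GL, of which the complex holds one or the other. POLR3G was at 143.5 ± 10.8 and 169.3 ± 13.9 CPM (SD, n = 4), a log2 fold change of 0.24 ± 0.06 (SE, adjusted p = 0.0452), with conditions that overlapped. It passed in 2 of the 8 fits with 1 library left out. POLR3GL was at 18.1 ± 0.7 and 13.7 ± 1.2 CPM, a log2 fold change of -0.40 ± 0.09 (SE, adjusted p = 0.0149), with no overlap, and it lost the call only without shScramble replicate 4 among the 20 alternative fits (adjusted p = 0.0545). POLR3GL shares 382 of its 1799 exon bases with another gene of the same strand. POLR2L and POLR2K, subunits shared between polymerases, were at 106.4 ± 16.6 and 96.6 ± 22.3 CPM and at 121.4 ± 2.8 and 124.3 ± 8.1 CPM. POLR2L split by GC class, with means of 120.3 and 115.4 CPM in the class with a positive trend and 92.4 and 77.8 CPM in the other. POLR3A, the catalytic subunit, was at 519.8 ± 20.1 and 512.3 ± 18.5 CPM (adjusted p = 0.868).

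The 3 pathway genes that fell, ATF1, PGK1 and POLR3GL, all hold a heptamer of the hairpin in the longest 3′ UTR. Of the 6 that rose, CREM and PRKAR2A hold one. Among the 94 that did not pass, 26 (27.7%) do. Over all genes tested with a 3′ UTR, 140 of 225 that were lower (62.2%) and 110 of 409 that were higher (26.9%) hold one, beside 26.5% of those that did not pass. CALCRL, RAMP1, ADM, ADM2 and PAM hold none. The heptamers were known from earlier results on these data, and these counts carry no test.

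**Figure D3:**
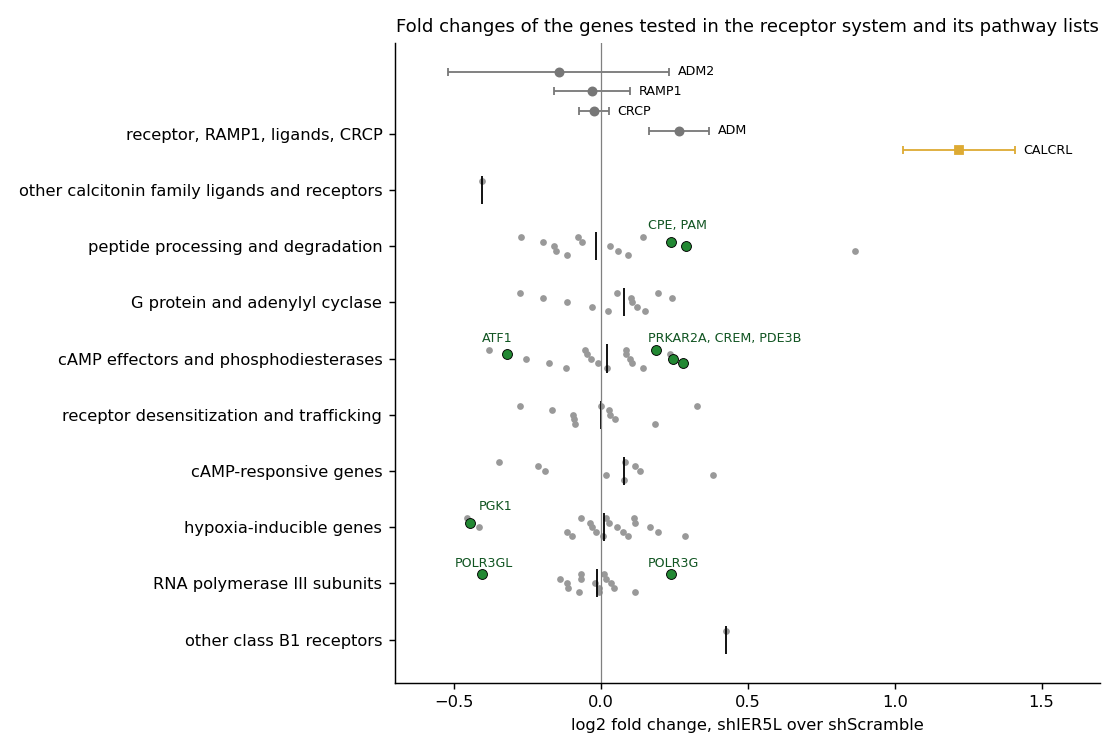
Log2 fold change of shIER5L over shScramble for CALCRL (square), RAMP1, ADM, ADM2 and CRCP with SE (top row) and for each tested gene of the pathway lists (dots; bar, list median). Green dots mark the 9 genes with an adjusted p under 0.05 in edgeR's quasi-likelihood test, and the list medians lie near 0 except where 1 gene was tested.

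Other members of the receptor class were low. Of 13 other class B1 receptors, 1 was tested, 5 had no read in any library and none passed. GIPR, the receptor of the gut peptide GIP, was at 0.776 ± 0.303 and 1.04 ± 0.24 CPM (SD, n = 4, adjusted p = 0.576), while PTH1R averaged 0.204 and 0.226 CPM and GLP2R 0.239 and 0.247 CPM. Atypical receptors linked to the family were also low. ACKR3, which binds adrenomedullin, was at 0.431 ± 0.110 and 0.328 ± 0.226 CPM (adjusted p = 0.794) and GPR182 at 0.163 ± 0.087 and 0.163 ± 0.104 CPM. Per kb, GIPR was at 0.164 ± 0.064 CPM per kb in shScramble, where it overlapped with CALCRL (0.214 ± 0.032), and at 0.220 ± 0.050 CPM per kb in shIER5L, where it lay below CALCRL (0.496 ± 0.061).

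The cell type was checked against markers, since CALCRL is typical of endothelium. The epithelial keratins KRT19 and KRT18 were at 481.3 and 398.6 CPM in shScramble and at 481.3 and 406.4 CPM in shIER5L. VIM, a mesenchymal marker, was at 538.6 and 536.8 CPM, while the epithelial cadherin CDH1 was at 1.09 and 1.22 CPM. The luminal prostate genes KLK2 and KLK3 had no read in any library. Of 10 endothelial markers, 5 were tested, and none passed in edgeR's quasi-likelihood test or in DESeq2, with 1, KDR, under an unadjusted p of 0.05. Their summed level was 36.2 to 40.5 CPM in shScramble and 31.7 to 36.6 CPM in shIER5L, most of it KDR (22.7 ± 1.8 and 19.1 ± 1.3 CPM, adjusted p = 0.127) and PECAM1 (9.55 ± 0.66 and 8.52 ± 0.93 CPM). ESAM was at 4.02 and 3.78 CPM. The defining endothelial genes CDH5 and VWF had no read in shScramble and averaged 0.0449 and 0.0639 CPM in shIER5L. Of 7 leukocyte markers, 2 were tested, none passed or had an unadjusted p under 0.05, and the summed level was 2.55 to 3.47 and 1.93 to 2.47 CPM, with PTPRC at 0.0613 and 0.0228 CPM and CD3E without a read. LYZ was at 1.55 and 1.06, CSF1R at 1.06 and 0.961 and CD14 at 0.196 and 0.173 CPM.

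Of the annotated genes within 500 kb of CALCRL, only TFPI and CALCRL-AS1 were tested, and neither passed. TFPI, which encodes an inhibitor of coagulation and lies 15770 bases from CALCRL, was at 212.3 ± 10.9 and 204.1 ± 6.2 CPM (SD, n = 4), a log2 fold change of -0.06 ± 0.05 (SE, adjusted p = 0.604). CALCRL-AS1, which runs through the locus on the opposite strand without sharing exon bases, was at 4.35 ± 0.73 and 4.27 ± 0.65 CPM, a log2 fold change of -0.03 ± 0.16 (SE, adjusted p = 0.965). The higher level of CALCRL was thus not accompanied by a difference past the test in either neighbour.

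Genes among the 5 whose pattern was most like that of CALCRL over the 8 libraries, by Pearson's r of log2 CPM among 14148 genes, were FAM114A1 (0.99), SORL1 (0.99), PHTF1 (0.99) and NXPE3 (0.98). After centring each condition the correlations were 0.81 to 0.86. The genes were picked on these same libraries, so that high values after centring are partly built in. CALCRL had only 26 to 80 reads per library, and its counting error was not separated from these correlations. They are no evidence of shared regulation. FAM114A1 was at 38.6 to 41.9 CPM in shScramble and 49.3 to 52.4 CPM in shIER5L. SORL1, a sorting receptor, was at 133.7 to 137.9 and 148.7 to 150.7 CPM, and PHTF1 at 81.8 to 87.2 and 95.4 to 99.3 CPM. Their log2 fold changes, 0.13 for SORL1 to 0.33 for FAM114A1, were smaller than that of CALCRL. Among the genes of the set, ADM had an r of 0.69 with CALCRL, RAMP1 of -0.08 and CRCP of -0.22. After centring, ADM was at 0.07, RAMP1 at -0.04 and CRCP at -0.0036.

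**Figure D4:**
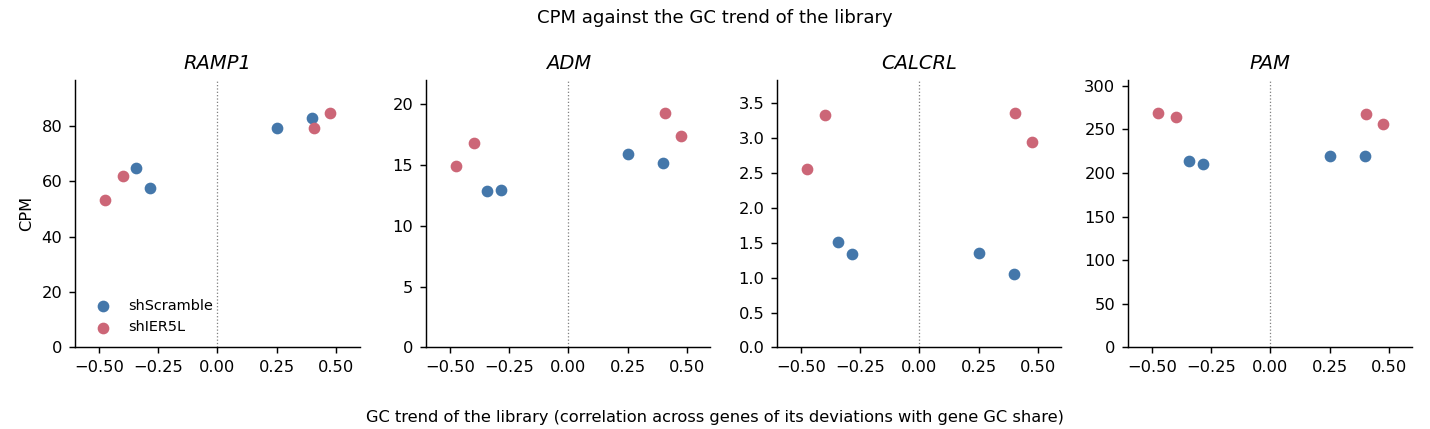
CPM of RAMP1, ADM, CALCRL and PAM in each library (blue, shScramble; red, shIER5L) against the GC trend of that library, the correlation across 14055 genes of its deviations from the condition mean with the GC share of each gene. RAMP1 separates by the sign of the trend and not by condition, ADM by both, and CALCRL and PAM by condition.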

How the data were processed

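RNA-seq of 8 PC3 samples was analysed. According to the methods, the labels and the command kept in the table, the authors aligned reads to hg38 with STAR 2.7.5c, removed PCR duplicates with SAMtools 1.15 and counted reads on exons with featureCounts 2.0.3, without a strand option and with the reads of a pair counted singly. The library kit is named differently by the labels (poly(A) mRNA) and by the methods (ribosomal RNA depletion). The authors deposited raw counts, which were the only values used. Per library, 21512128 to 24662190 reads were counted, and the median SE was 0.109 on the log2 scale. Floors for counts of 0 cover counting error only and treat reads as independent, so that they are too low for paired reads.

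Genes were filtered with filterByExpr, scaled by TMM and compared with edgeR 4.0.16 (glmQLFit, glmQLFTest, condition as the only term, Benjamini-Hochberg over 16959 genes) in R 4.3.3, with limma 3.58.1 and DESeq2 1.42.0 as alternatives. Fits were tested on simulated data. SE was derived from the fold change and the F statistic. CPM per kb divides by the exon length of the table. Correlations used log2(CPM + 0.1). Symbols and 3′ UTRs came from GENCODE v44, and the hairpin from the study's list. GC shares were taken from the longest transcript, and the GC trend of a library was smoothed with a span of 0.3. A CPM minimum of 1 on average applied to the GC trend and the patterns like CALCRL.

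The genes and lists were chosen with earlier results of these data known. Named are the 9 genes, IER5L, the genes of each list that passed or were among its 3 highest per kb, the tested genes within 500 kb of CALCRL and the 5 genes most like it. ADCY6, CPD, PRKACB, PRKACA, PRKAR1B, PRKAR2B, EGLN1 and the markers at or near 0 were named after their values were seen. So were CRTC3, the low cAMP-responsive genes and HIF1A, EPAS1, ARNT and VHL. Other scalings, filters, tests, a replicate block, halved counts and each library left out were planned, while the fits that account for GC content were added after the data were seen. Same-numbered replicates did not stand out as pairs. A few of the genes so named, and 1 site, are not reported here.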

Additional observations from a re-analysis of the deposited data

Results flagged for a closer look

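In 106 condition groups of 4 libraries, over 57 genes, 7 had 1 library far from the other 3 by Dixon's criterion, which chance gives in about 1 of 20 groups. CALCR was at 0.0943 CPM in shScramble replicate 1 and CALCB at 0.0803 CPM in shScramble replicate 3, with 2 reads each and no read in the rest of the group. CPE was highest in shScramble replicate 1, at 64.1 CPM, the library nearest to the silenced cells. DUSP1 was at 14.4 CPM in shScramble replicate 1 and ESAM at 4.65 CPM in shScramble replicate 2. GNAS was lowest in shIER5L replicate 3, at 318 CPM. PHTF1 was lowest in shScramble replicate 3, at 81.8 CPM, where CALCRL was lowest as well.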

How the results depend on the processing

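The log2 fold change of CALCRL was 1.17 to 1.22 over the 12 alternative fits of all libraries and 1.12 to 1.29 with 1 library left out. With the GC trend removed, or with the GC class as a term, 1 gene of the set besides CALCRL passed (ADM, log2 fold change 0.32 or 0.27), 16 or 21 pathway genes and 1368 or 1753 of all genes. Without 1 library, log2 fold changes ran from -0.135 to 0.0773 for RAMP1, from -0.477 to 0.0874 for ADM2, from -0.0569 to 0.0111 for CRCP and from 0.20 to 0.32 for ADM, and RAMP1 turned to 0.0256 with the GC trend removed. ADM2 could not be fitted at a minimum of 1 CPM or with halved counts. Pathway calls numbered 14 in DESeq2 (of 947 calls over all genes, 5.58%), 0 with a log2 fold change of at least 0.5 as well, and 4 to 11 without 1 library. Calls over all genes numbered 134 with that fold change and 305 to 756 without 1 library, the fewest being 341, 305 and 434 without shScramble replicates 2, 3 and 4 and 358 without shIER5L replicate 3; pathway calls were 4 in each of these. Same-numbered replicates did not stand out as pairs (correlations of -0.087 to 0.204, 1 of 4 closest to its own number). The GC classes enter these correlations, so that the check cannot exclude shared batches. With the replicate block, 655 genes and 9 pathway genes passed and CALCRL was at 1.22. The causes were not tested. Depth left CALCR, CALCB, RAMP2 and RAMP3, at 0 to 2 reads per library, untested, and ADM2 had 8 to 27 reads.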
